A study of Mus musculus with 8 samples.

Results

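The loci of the 3 Nr4a genes, Nr4a1, Nr4a2 and Nr4a3, were examined in open chromatin of the mouse hippocampus. Members were chosen by position, as every deposited region and every listed peak that overlapped a fixed window around each gene on build mm9. The windows were chr15:101075000-101115000 for Nr4a1 (40 kb), chr2:56945000-56990000 for Nr4a2 (45 kb) and chr4:48045000-48110000 for Nr4a3 (65 kb). They held 8 of the 11304 deposited regions, with 3 at Nr4a1, 2 at Nr4a2 and 3 at Nr4a3.

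Sono-seq reads out where fixed chromatin is easily broken by sound, by sequencing short sonicated fragments with no immunoprecipitation. The 8 libraries came from the hippocampus of adult male C57BL/6J mice, 2 months old and housed singly. All mice were handled for 3 days. The conditioned group (4 libraries) then received a single training in contextual fear conditioning, with 1 foot shock of 2 s and 1.5 mA, and tissue was taken 30 min later. The control group (4 libraries) had handling only, with dissection matched for clock time, so placement in the chamber and the shock cannot be told apart. In bulk tissue, a change of chromatin within cells and a change in the mixture of cells cannot be told apart either. Markers of cell types were not analysed here, because no gene annotation of mm9 was at hand.

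The Nr4a genes encode orphan nuclear receptors, transcription factors with a zinc-finger DNA-binding domain that act without a known classical ligand. Nr4a1 is also called Nur77, Nr4a2 is Nurr1 and Nr4a3 is Nor-1. In neurons they belong to the immediate-early genes, which are transcribed within minutes of calcium and cAMP signalling, partly through CREB, a factor that binds the cAMP response element. They are known in the hippocampus for induction after learning. Nr4a1 and Nr4a2, but not Nr4a3, can pair with retinoid X receptors.

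The promoters of the 3 genes are shown because the 5-base part of the cAMP response element, TGACG, is repeated in each of them. The sequences are the 250 bases before the annotated start, 5′ to 3′ on the strand of the gene, from RefSeq on build GRCm38.p6, and capitals mark TGACG or its reverse complement. They lie at chr15:101266596-101266845 (plus strand), chr2:57124004-57124253 (minus strand) and chr4:48045055-48045304 (plus strand) of GRCm38.p6. These positions cannot be set against the mm9 positions used elsewhere, and the place of the deposited regions relative to promoters, exons or introns was not determined.
Nr4a1: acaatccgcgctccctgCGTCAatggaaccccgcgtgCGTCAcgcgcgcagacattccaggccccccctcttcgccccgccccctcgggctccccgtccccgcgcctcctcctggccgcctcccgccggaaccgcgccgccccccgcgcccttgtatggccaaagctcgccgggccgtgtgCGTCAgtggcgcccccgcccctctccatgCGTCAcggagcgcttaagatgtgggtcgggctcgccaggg
Nr4a2: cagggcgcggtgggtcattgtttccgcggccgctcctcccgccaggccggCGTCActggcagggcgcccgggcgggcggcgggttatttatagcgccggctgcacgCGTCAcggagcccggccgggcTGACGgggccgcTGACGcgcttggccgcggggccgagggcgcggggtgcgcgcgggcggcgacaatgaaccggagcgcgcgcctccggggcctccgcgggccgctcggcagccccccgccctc
Nr4a3: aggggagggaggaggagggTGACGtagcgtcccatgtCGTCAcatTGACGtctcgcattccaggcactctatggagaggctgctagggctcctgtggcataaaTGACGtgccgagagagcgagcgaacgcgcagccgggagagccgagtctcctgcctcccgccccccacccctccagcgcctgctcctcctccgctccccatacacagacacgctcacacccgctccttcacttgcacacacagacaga

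Each promoter held 4 matches to TGACG on either strand. Of 32851 promoters of the same length in the RefSeq table, 17.8% held at least 1 match and 0.137% held at least 4. Among the 7120 promoters with at least 18 CpG dinucleotides, the number in the Nr4a3 promoter, 0.548% held at least 4. The matches of Nr4a1 began 233, 213, 69 and 40 bases before the start. Those of Nr4a2 began at 200, 144, 123 and 111 bases, and those of Nr4a3 at 231, 213, 205 and 147 bases. The full element TGACGTCA, present in 1.55% of promoters, was in none of the 3. The Sp1 motif GGGCGG (32.7% of promoters) matched at 3 positions in Nr4a1, 4 in Nr4a2 and 1 in Nr4a3. A TATAAA match on either strand (12.4% of promoters) was found in the Nr4a2 promoter alone of the 3. It lay on the strand opposite to the gene, 164 bases before the start, and overlapped a match to the MEF2 site (2.92%). No promoter of the 3 matched the Nr4a monomer element AAAGGTCA (1.34%), AP-1 (TGANTCA, 6.75%), the Egr motif GCGTGGGCG (0.536%) or the CArG box (1.47%). GC content was 74.4% in Nr4a1, 80% in Nr4a2 and 63.6% in Nr4a3, against a median of 52.4% over all promoters. A match says only that the letters are there.

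All 8 libraries had listed peaks at each locus. The strongest peak at Nr4a3 lay in the first region in 7 libraries, and in the second in control replicate 1. At Nr4a2 it lay in the first region in all 4 conditioned libraries and in the second in 3 controls, but outside both in control replicate 2 (z 82.6 at chr2:56982076). At Nr4a1 its place varied over all 3 regions and beyond them, and in control replicate 4 it was outside any region (z 69.6 at chr15:101096101). A listed peak carries a z score, the authors' own value of its strength, with a lowest listed value of 5. When the peaks of the 8 libraries were merged where they touched, the Nr4a1 window held 60 sites, the Nr4a2 window 39 and the Nr4a3 window 58. Most sites at Nr4a1 (39) and at Nr4a3 (43) were seen in a single library, as were 19 of the 39 at Nr4a2. Sites with a peak in at least 6 of 8 libraries numbered 6 at Nr4a1, 13 at Nr4a2 and 4 at Nr4a3. The share of shared sites was thus highest at Nr4a2, and the map of listed peaks shows these sites in rows of discs across libraries.

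**Figure D1:**
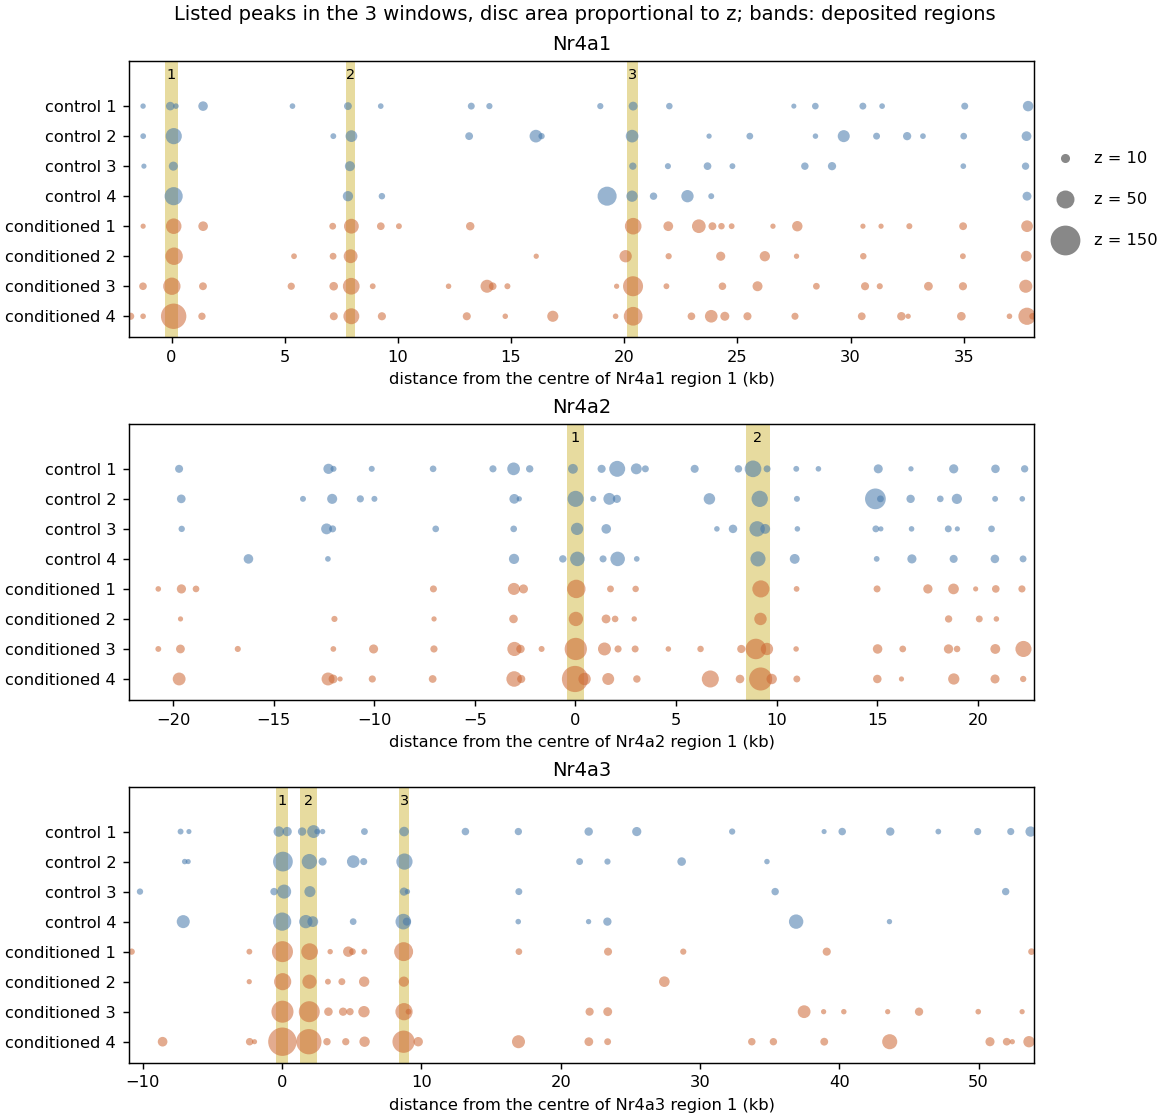
Listed peaks of the 8 libraries (rows; control in blue, conditioned in orange) against distance in kb from the centre of the region with the most counts at each locus; disc area is proportional to z and yellow bands mark the 8 deposited regions. Large discs recur under the bands, with exceptions such as control 4 at Nr4a1 and control 2 at Nr4a2, and the Nr4a3 window has 43 of its 58 sites in 1 library only.

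Deposited regions were more crowded here than along most of the genome. Of 60367 consecutive autosomal windows of 40 kb, 15.9% held any deposited region and 0.417% held 3 or more, as the Nr4a1 window did. At least 2 regions were present in 2.73% of windows of 45 kb, the length used for Nr4a2, and at least 3 in 1.18% of windows of 65 kb, the length used for Nr4a3. The number of listed peaks of any strength did not follow this order. The Nr4a3 window had 8 to 22 listed peaks per library, more than only 8.24% to 34.8% of windows of its length, whereas Nr4a2 had 12 to 25 peaks, more than 61.6% to 98.1%. Nr4a1 lay between 53.3% and 94.6% with 9 to 24 peaks. These shares are a description of the windows chosen and carry no test.

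Library depth set limits on every value below. Total counts over all regions ranged from 36786183 to 83233550 per library, but the 50 highest regions took most of them, and 3.35% to 17.5% was left for the remaining regions. Control replicates 1 and 3 had the smallest remainder (3.35% and 5.47%). At the 8 Nr4a regions the counts ran from 43 to 3442 reads. Levels are given as CPM, the count divided by library size and scaled by the trimmed mean of M values (TMM), which sets each region against most others of the same library.

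Per length, the regions differed little from each other except for the first at Nr4a3. The first Nr4a3 region (chr4:48055548-48056448, 900 bp) had a mean level of 17.6 CPM per kb over the 8 libraries (9.67 to 22.8). The first Nr4a1 region followed with 10.3 CPM per kb (5.09 to 16.4), and the other 6 regions lay between 6.66 and 8.23 CPM per kb. Across all regions the median was 8.04 CPM per kb. Neighbours in this order overlapped over libraries in every case, the first Nr4a3 region included.

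At Nr4a1, all 3 regions had higher mean levels in conditioned than in control libraries, and none passed the test. In the first region (chr15:101076596-101077169, 573 bp), the control libraries, in order of replicate here and below, had 2.92, 5.33, 4.11 and 7.88 CPM. The conditioned libraries had 4.94, 7.84, 4.85 and 9.40 CPM. The groups overlapped, with means of 5.06 ± 2.12 and 6.76 ± 2.24 CPM (SD, n = 4 each) and a log2 fold change of 0.41 (SE 0.47). Single libraries moved that value, to 0.21 without control replicate 1 or without conditioned replicate 4 and to 0.68 without control replicate 4. Without control replicates 1 and 3 it was 0.02.

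The second Nr4a1 region (chr15:101084569-101085003, 434 bp) lay 7400 bp further along. Its levels were 2.46, 2.27, 2.94 and 2.93 CPM in controls and 3.50, 4.38, 4.19 and 3.46 CPM in conditioned libraries. Every conditioned library was above every control library, and the means were 2.65 ± 0.335 and 3.88 ± 0.472 CPM (SD, n = 4 each; log2 fold change 0.55, SE 0.45).

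The third Nr4a1 region (chr15:101097001-101097503, 502 bp) had 2.55, 2.06, 2.30 and 1.80 CPM in controls and 5.22, 2.95, 5.90 and 3.96 CPM after conditioning. Again the groups did not overlap, and conditioned replicate 2 was the conditioned library nearest to the controls. The means were 2.18 ± 0.322 and 4.51 ± 1.31 CPM (SD, n = 4 each), and the log2 fold change was 1.05 (SE 0.48). That change was higher than in 97.7% of all regions. In edgeR's quasi-likelihood test, p was 0.0421 before adjustment and 0.634 after it.

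At Nr4a2, the gene also required for dopamine neurons of the midbrain, the 2 regions differed in opposite directions between the groups, and neither passed the test. The first (chr2:56966771-56967609, 838 bp) had 3.46, 4.68, 4.97 and 4.54 CPM in controls and 8.37, 5.16, 9.84 and 12.7 CPM in conditioned libraries. The groups did not overlap, although conditioned replicate 2 exceeded the highest control only narrowly. Means were 4.41 ± 0.657 and 9.01 ± 3.13 CPM (SD, n = 4 each), and the log2 fold change was 1.03 (SE 0.44). By edgeR's quasi-likelihood test p was 0.0317 before and 0.613 after adjustment.

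The second Nr4a2 region (chr2:56975665-56976871, 1206 bp) had 13.8, 11.3, 11.7 and 4.46 CPM in controls and 7.69, 5.61, 5.91 and 7.78 CPM in conditioned libraries. Control replicate 4 was below all conditioned libraries and the other 3 controls were above all of them. The means of 10.3 ± 4.05 and 6.75 ± 1.15 CPM (SD, n = 4 each) gave a log2 fold change of -0.61 (SE 0.43), which did not pass the test (edgeR adjusted p = 0.771). This sign depended on scaling, since the log2 fold change was 0.33 with region totals alone. The median over all regions also moved, from -0.05 to 0.75, and the region stayed below it under either scaling.

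At Nr4a3 the groups overlapped in all 3 regions. The first region had 8.70, 17.7, 16.02 and 14.2 CPM in controls and 15.3, 20.1, 14.1 and 20.5 CPM after conditioning, so only control replicate 1 fell clearly outside the conditioned range. The log2 fold change was 0.31 (SE 0.37; means 14.2 ± 3.90 and 17.5 ± 3.29 CPM, SD, n = 4 each), and 0.12 without control replicate 1. The second region (chr4:48057292-48058492, 1200 bp) began 844 bp after the end of the first. It had 15.2, 5.87, 10.6 and 4.96 CPM in controls and 7.52, 8.11, 11.6 and 15.1 CPM in conditioned libraries, with full overlap and a log2 fold change of 0.21 (SE 0.45). Here the choice of controls mattered: the value was 0.95 without control replicates 1 and 3 and -0.03 without control replicate 4.

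The third Nr4a3 region (chr4:48064380-48065130, 750 bp) had 5.70, 6.52, 3.04 and 5.64 CPM in controls and 8.76, 2.79, 5.10 and 7.25 CPM after conditioning. Conditioned replicates 1 and 2 were the highest and the lowest of all 8 libraries. The log2 fold change of 0.19 (SE 0.49) became -0.02 without control replicate 3, -0.05 without conditioned replicate 1 and -0.04 without control replicates 1 and 3.

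**Figure D2:**
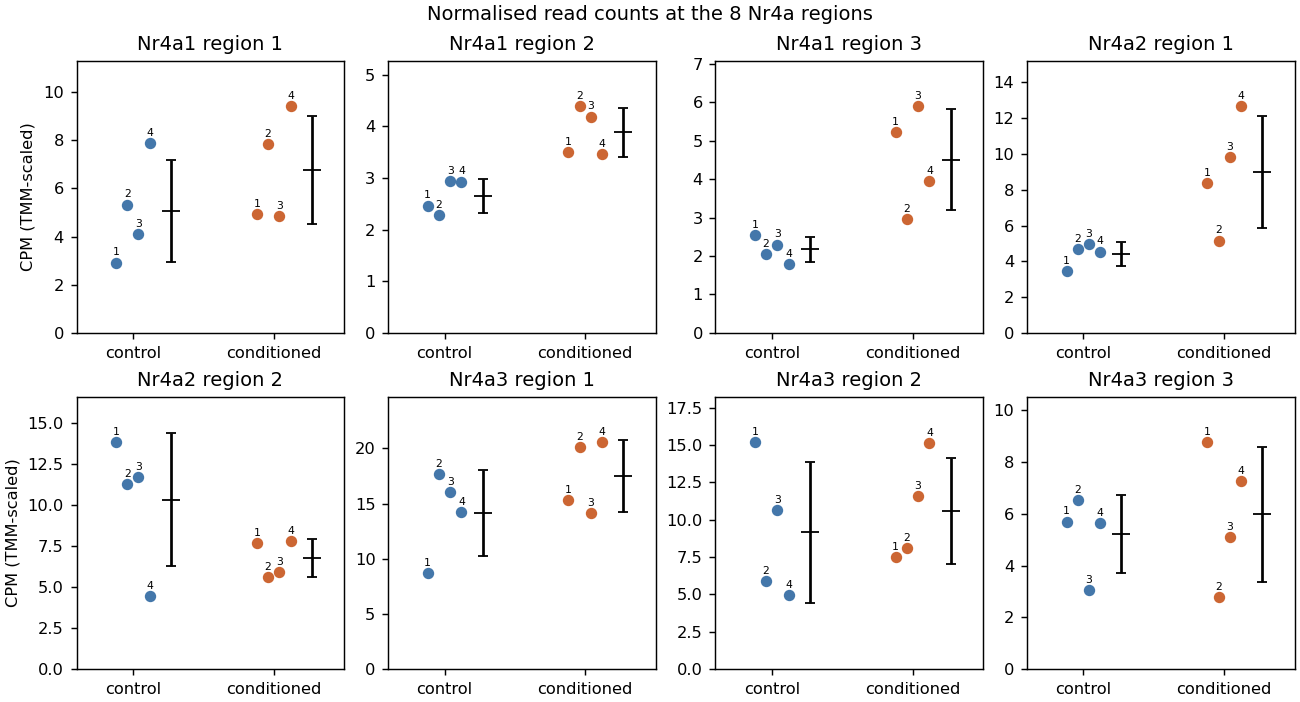
TMM-scaled CPM of each library (points, numbered by replicate; control in blue, conditioned in orange) at the 8 regions, with mean and SD as black bars. The groups stand apart in Nr4a1 regions 2 and 3 (control at most 2.94 and 2.55 CPM, conditioned at least 3.46 and 2.95 CPM) and in Nr4a2 region 1, and overlap in the other 5.

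No Nr4a region passed the test across the table. With edgeR's quasi-likelihood test and Benjamini-Hochberg adjustment over 11304 regions, 0 of 8 had an adjusted p below 0.05, as did 0% of all regions, and the 8 adjusted values ran from 0.613 to 0.959. At unadjusted p below 0.05 there were 2 of the 8, both higher after conditioning, against 1.76% of all regions called in that direction, 6.03% in the lower direction and 7.79% in either. Single libraries decided this count, which was 0 without conditioned replicate 1, 3 or 4 and 1 without control replicate 2, 3 or 4. Without control replicate 4 the region counted was the second Nr4a2 region, which was lower after conditioning (log2 fold change -0.89, edgeR unadjusted p = 0.0398). Neither of the 2 higher regions was then below 0.05. DESeq2's Wald test called 0 of 8 after adjustment and 0.359% of all regions, and before adjustment 2 of 8 and 10.3%. With limma's voom, 0 of 8 and 0% were called after adjustment, and 2 of 8 and 4.18% before it. With region totals alone in edgeR, 0 of 8 and 0.0531% were called after adjustment, and 2 of 8 and 10% before it.

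Higher values without overlap between the groups were found in 3 of the 8 regions, against 1.5% of all regions, and lower values without overlap in 0 of 8, against 0.902%. The second Nr4a1 region, among those higher, was on the deposited list only through its peaks in conditioned libraries, which favours such a split. The third Nr4a1 region, also higher, had peaks of z at least 30 in 3 conditioned libraries and 1 control. No deposited region had them in fewer than 4 libraries, so its listing favours such a split as well. When CPM were computed from region totals alone, 2 of the 8 did not overlap (both at Nr4a1), against 5.65% of regions. The median log2 fold change of the 8 was 0.36, beside -0.05 over all regions, and 7 of 8 were above 0 beside 46.4% of all regions. With region totals alone both medians shifted up, to 1.24 and 0.75. Regions of 1 locus share their libraries and surroundings, and neighbouring values are not independent.

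**Figure D3:**
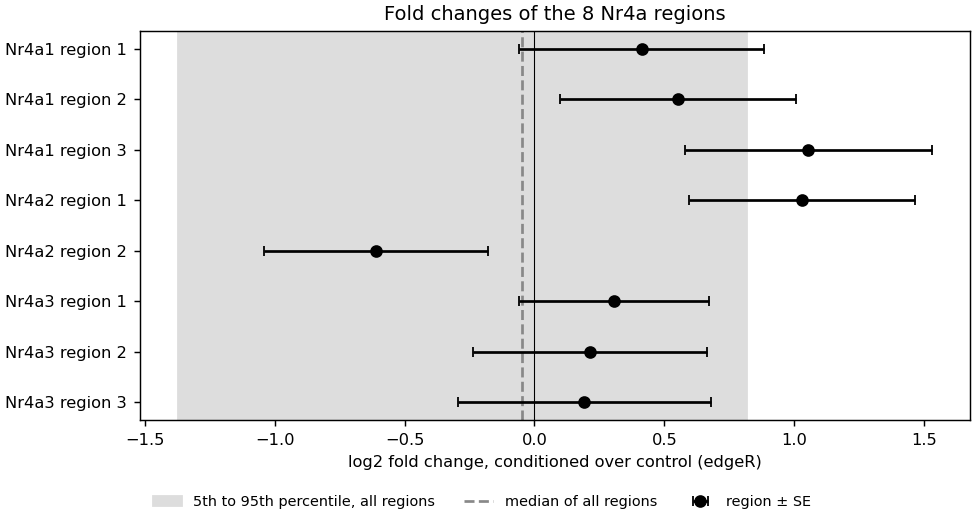
Log2 fold change of conditioned over control libraries (points) with SE (bars) for the 8 regions, against the 5th to 95th percentile of all 11304 regions (grey band, -1.37 to 0.82) and their median (dashed line, -0.05). The third Nr4a1 region (1.05) and the first Nr4a2 region (1.03) lie beyond the band, and the second Nr4a2 region is the only point below 0.

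The place of each region within its own library, which needs no factor between libraries, was also followed. The count of the third Nr4a1 region exceeded those of 7.98% to 14.01% of all regions in control and 20.5% to 48.0% in conditioned libraries. For the first Nr4a2 region the percentiles were 23.0 to 40.4 in control and 41.03 to 83.6 in conditioned libraries. These 2 of the 8 regions were higher without overlap, against 1.94% of all regions, and 0 of 8 were lower without overlap, against 1.17%. The second Nr4a2 region stood lower after conditioning than in 3 of 4 controls, at 85.4, 79.4, 76.9 and 36.3 in controls and 64.3, 44.9, 48.1 and 60.5 in conditioned libraries. The other 5 regions overlapped as well. At Nr4a1, the first region had percentiles of 17.5 to 60.2 in control and 38.02 to 70.2 in conditioned libraries, and the second 10.1 to 21.4 and 20.2 to 34.3. At Nr4a3, the ranges in control and conditioned libraries were 65.3 to 93.1 and 87.9 to 96.4 in the first region, 40.5 to 88.8 and 61.2 to 89.6 in the second, and 21.1 to 52.9 and 18.8 to 71.7 in the third. This measure was chosen after seeing the data and was not tested.

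Ratios between regions of the same locus in the same library were compared for all 7 pairs, likewise chosen after seeing the data. The log2 ratio of the first over the second Nr4a2 region was -1.995, -1.27, -1.24 and 0.03 in the controls and 0.12, -0.12, 0.74 and 0.70 in the conditioned libraries. The first 3 controls lay below all conditioned libraries, and control replicate 4 lay among them. The means were -1.12 ± 0.84 and 0.36 ± 0.43 (SD, n = 4 each), a difference of 1.48 with a two-sided exact permutation p of 0.0571, or 0.4 after Benjamini-Hochberg adjustment over the 7 ratios. The other 6 differences lay between -0.56 and 0.21, with exact permutation p from 0.171 to 0.971. None of the 7 passed the threshold.

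**Figure D4:**
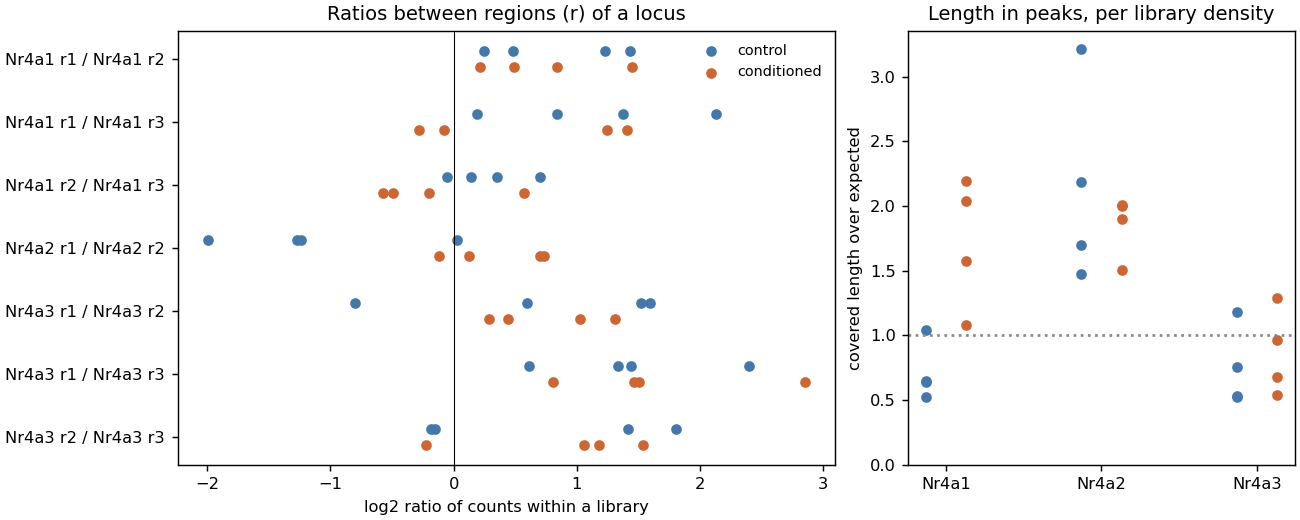
Left, log2 ratio of counts between 2 regions (r) of a locus within each library (control in blue, conditioned in orange); right, length in listed peaks at each locus divided by the length expected from the library's own density of peaks (dotted line, 1). The Nr4a2 ratio is negative in 3 of 4 controls, and at Nr4a1 the conditioned libraries (1.08 to 2.19) lie above the controls (0.526 to 1.04).

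Peak strength differed widely between libraries at all 3 loci. The deposited number of carriers of a region equalled the number of libraries with a peak of z at least 30 in all 11304 regions. By that measure the 8 Nr4a regions were carried in 2, 7, 2 and 6 cases by the controls and in 8, 5, 8 and 8 cases by the conditioned libraries. Over all regions the same libraries carried 24.3%, 88.2%, 25.5% and 74.2%, and 92.9%, 58.6%, 95.01% and 97.7%. The libraries with few carriers at Nr4a were thus those with few carriers everywhere.

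Of the 8 regions, 7 had more conditioned than control carriers, against 81% of all regions, and 5 were carried by all 4 conditioned libraries, against 53.4%. The second Nr4a1 region was carried by all 4 conditioned libraries and by no control, which held for 1.54% of regions. The lowest number of carriers in the deposited list was 4, so this region was listed only through the conditioned libraries. Its split of carriers is therefore partly fixed by that rule and is no support for a difference. Its highest z was 11.8, 26.5, 19.3 and 20.2 in controls and 42.1, 36.8, 53.6 and 48.6 in conditioned libraries. As a percentile of z over all regions of the same library, the region stood at 17.6, 8.52, 47.3 and 12.1 in controls. In conditioned libraries it stood at 32.2, 56.3, 36.7 and 17.2, so by this measure the groups overlapped. In z itself, no control passed 30 and every conditioned library did. In contrast, the second Nr4a2 region was carried by all 4 controls (53.2, 50.9, 45.7 and 43.6) and by 3 conditioned libraries (56.2, 80.8 and 102), with conditioned replicate 2 just under the limit at 29.7.

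By deposited mean z over carriers the first Nr4a3 region was the strongest of the 8 (80.8), with z of 21.0, 74.8, 37.9 and 63.8 in controls and 84.7, 56.5, 93.0 and 155 in conditioned libraries. Conditioned replicate 4 had the highest z in 6 of the 8 regions, and its median z over all regions, 84.9, was also the highest of the 8 libraries. The first Nr4a1 region had z of 14.3, 50.2, 15.9 and 63.0 in controls and 46.5, 58.5, 57.6 and 124 in conditioned libraries. The third had 15.1, 30.8, 10.3 and 24.5 against 52.9, 29.2, 76.8 and 67.3. The first Nr4a2 region had 18.6, 49.7, 28.9 and 40.6 against 65.3, 39.5, 95.04 and 132. In each of these, control replicates 1 and 3 were the lowest 2 libraries.

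**Figure D5:**
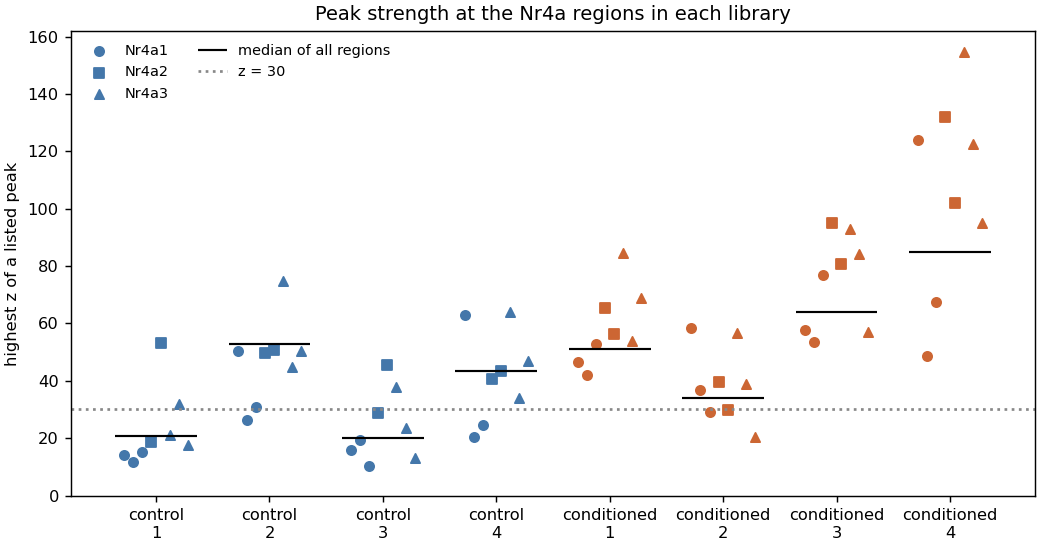
Highest z of a listed peak over each of the 8 regions (symbols by locus) in each library, with the median of all regions in that library (black line) and the limit of 30 for a carrier (dotted line). Symbols move with the library's own median, which is lowest in control replicate 3 (20.1) and highest in conditioned replicate 4 (84.9).

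Whole windows were compared by number of peaks, length in peaks and highest z, giving 9 tests by exact permutation. The length in peaks at Nr4a1 was 1700, 1700, 550 and 750 bp in the controls and 2400, 2000, 3150 and 4900 bp in the conditioned libraries. The groups did not overlap, and the means were 1175 ± 612 and 3113 ± 1283 bp (SD, n = 4 each). The difference of 1938 bp (SE 711) had an exact permutation p of 0.0286, two-sided, the smallest that 4 against 4 allows, and a Benjamini-Hochberg value of 0.257 over the 9 tests. It therefore did not pass after correction. Relative to each library's own density of peaks the lengths were 0.640, 1.04, 0.526 and 0.646 times the expected length in controls and 1.08, 2.04, 1.57 and 2.19 times in conditioned libraries. Set against autosomal windows of 40 kb, the length exceeded that of 46.1%, 69.0%, 48.5% and 52.3% of windows in controls. In conditioned libraries the shares were 65.8%, 85.6%, 82.0% and 91.5%, so by this measure the groups overlapped. The share of windows in which the groups stand apart was not counted.

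Peaks with a listed length of 800 bp or more were looked at after seeing the data, and at Nr4a1 the conditioned libraries listed 8 of the 9. Nr4a2 went the other way, with such peaks in every control but only in conditioned replicates 3 and 4. At Nr4a3 they were listed in control replicate 3 and conditioned replicate 4. The share of wide peaks among all listed peaks of each library is not given here. A wide peak just before the second Nr4a1 region, reaching from chr15:101083503 to 101084453 in conditioned replicate 1, was listed in all 4 conditioned libraries (z 8.84, 8.95, 14.2 and 12.2). Among the controls only replicate 2 listed it, at z 6.55. Conditioned replicates 3 and 4 also listed wide peaks before the third region, with z of 5.34 and 5.97, close to the listing minimum. Without wide peaks the lengths were 1700, 850, 550 and 750 bp in controls and 1400, 1100, 1250 and 1100 bp in conditioned libraries, a difference of 250 bp (exact permutation p = 0.4, n = 4 each). Since nearly all wide peaks at Nr4a1 were in conditioned libraries, their removal had to shrink this difference, and it tests no cause. At Nr4a2 the same removal raised the difference from 237.5 to 1200 bp (exact permutation p = 0.171).

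The other 8 tests gave exact permutation p of 0.0857 to 0.971. The mean number of listed peaks at Nr4a1 was 13.8 ± 4.43 in controls and 20 ± 4.83 after conditioning (SD; exact permutation p = 0.143). At Nr4a2 the numbers were 19.5 ± 3.87 and 19 ± 5.72 (exact permutation p = 0.971), and at Nr4a3 13.8 ± 5.68 and 15 ± 5.48 (exact permutation p = 0.8). The highest z of the window had a mean of 40.1 ± 24.3 in control and 78.0 ± 32.2 in conditioned libraries at Nr4a1 (exact permutation p = 0.114). Without conditioned replicate 4 the difference at Nr4a1 fell from 37.9 to 22.6. The means were 56.3 ± 18.0 and 82.9 ± 39.7 at Nr4a2 (exact permutation p = 0.286), and 52.1 ± 20.5 and 97.2 ± 41.3 at Nr4a3 (exact permutation p = 0.0857, SD, n = 4 each). Length in peaks at Nr4a2 was 3650 ± 1112 and 3888 ± 1417 bp (exact permutation p = 0.771), and at Nr4a3 it was 1813 ± 554 and 2400 ± 545 bp (exact permutation p = 0.229).

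Several shared sites lay outside the deposited regions. At Nr4a1, a narrow site at chr15:101114569-101114750 had a peak in all 8 libraries, with z of 21.0, 18.2, 10.4 and 15.3 in controls and 26.2, 22.6, 32.9 and 56.9 in conditioned libraries. It reached 30 in conditioned replicates 3 and 4 only, and the lowest number of carriers in the deposited list was 4. Sites at chr15:101075596-101075687 (6 libraries) and chr15:101111751-101111950 (7 libraries) stayed at z of 14.3 or less. The remaining 3 named sites of Nr4a1 were those of its deposited regions.

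At Nr4a2, 4 of the 6 sites named by median z lay outside the list or only touched it. The site at chr2:56964089-56964185 had a peak in all 8 libraries, with z of 31.0, 18.1, 8.54 and 20.03 in controls and 27.9, 14.2, 38.6 and 46.4 in conditioned libraries. A site at chr2:56967576-56969339, which only touches the edge of the first region, had its highest z, 48.9, in control replicate 1 and its lowest, 8.93, in conditioned replicate 1. The site at chr2:56984459-56986321 was present in all 8 libraries at z of 9.10 to 24.4, and that at chr2:56947439-56947709 in 7 libraries at up to 31.7. At Nr4a3, the single shared site outside the list, chr4:48061830-48061942, was listed in all 4 conditioned libraries (z 6.85, 20.6, 24.9 and 20.8) and in control replicates 1 and 2 (8.92 and 9.55). Not being listed means only that no peak reached a z of 5.

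The regions elsewhere whose levels ran most like those of the loci were named by Pearson's r of log2 CPM over the 8 libraries. For the first Nr4a3 region the 3 most alike were chr13:55310516-55314140 (r = 0.99), chr6:58780393-58782004 (0.98) and chr9:77598236-77599135 (0.98). For the first Nr4a1 region they were chr7:149718846-149719356 (0.96), chr11:120493479-120495190 (0.96) and chr11:115242979-115243829 (0.96). For the first Nr4a2 region they were chr7:137835923-137836563 (0.95), chr9:96918485-96919585 (0.95) and chr5:114221027-114221907 (0.94). They were the highest of the correlations with all 11304 regions, on the same 8 libraries and scaling factors. Among all pairs of the Nr4a regions themselves, the highest r was 0.80, between the third Nr4a1 and the first Nr4a2 region. Next came 0.78 between the first Nr4a1 and the first Nr4a3 region. The lowest was -0.71, between the first Nr4a1 and the second Nr4a2 region. All other pairs lay between these extremes, such as 0.005 between the first and the third Nr4a1 region. Within Nr4a3, the 3 values were -0.25, -0.16 and -0.04.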

How the data were processed

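Per the labels' protocols, chromatin was fixed for 10 min in 2% paraformaldehyde and fragments near 300 bp were selected on a gel. Bowtie2 and mm9 are named in the submitters' processing notes. For the peak caller, counting tool and read filters, the sources used here give no name. The authors deposited raw read counts per region, with 0 columns of other samples, and 1 z score per listed peak, whose scaling is not stated. Coordinates are printed unaltered, so starts may be counted from 0 rather than 1. Intervals were not computed from reads, which carry no molecular identifiers.

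All 11304 regions entered a quasi-likelihood fit of counts in edgeR 4.0.16 under R 4.3.3 (group as the only term, TMM, filterByExpr with minimum count 10 and total 15, which removed 0 regions). The SE is the log2 fold change over the square root of F. The script was tested on simulated data. Peak measures used exact permutation over 70 arrangements, with 50 bp added to each listed peak and an overlap of at least 1 bp. Alternatives used DESeq2 1.42.0 and limma 3.58.1. Python 3.11.15 handled the tables. The labels do not say whether each library is a separate animal, so p-values measure the spread between libraries, which may be partly technical.

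Every deposited region in a window was named, and merged sites with peaks in at least 6 libraries, up to 6 per locus by median z. Members, lists and windows were chosen with earlier results of these data known. The pathway gene list was not located, since the gene table at hand is GRCm38.p6. All 3 promoters matched by symbol.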

Additional observations from a re-analysis of the deposited data

Results flagged for a closer look

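Of 50 groups of 4 values checked, 2 had a library far from the other 3 by Dixon's criterion, and chance gives about 1 in 20. In the first Nr4a1 region, the highest z of conditioned replicate 4 was 124, against 46.5 to 58.5 in the other conditioned libraries. At Nr4a2, the length in listed peaks of control replicate 3 was 2000 bp, against 4000 to 4400 bp in the other controls.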

How the results depend on the processing

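The count of 0 Nr4a regions at adjusted p below 0.05 was also 0 under all 18 alternatives. Over all regions the count was 0 except with region totals alone (6) and DESeq2's Wald test (40), and the cause was not tested. The filters on low counts removed 0 regions and test nothing. With the replicate block the counts were 0 and 0, and 0 of 8 Nr4a regions had an unadjusted p below 0.05. The same numbers, 1, 4, 6 and 9, stand in the titles of both groups. Deviations from the group means correlated at 0.16, 0.05, -0.06 and 0.27 between libraries of the same number, for replicates 1 to 4. Between libraries of unlike number the correlations ran from -0.34 to 0.28. So few values cannot settle whether the numbers pair the libraries, and the main fit did not use them.

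Single log2 fold changes that turned sign were those of the second Nr4a2 region with region totals alone (0.33), of the second Nr4a3 region without control replicate 4 (-0.029), and of the third Nr4a3 region without control replicate 3 (-0.017), without conditioned replicate 1 (-0.050) and without control replicates 1 and 3 (-0.038). Leaving out 1 library, the log2 fold changes ran from 0.21 to 0.68, 0.48 to 0.61 and 0.90 to 1.21 in Nr4a1 regions 1 to 3, from 0.82 to 1.22 and -0.89 to -0.45 in Nr4a2 regions 1 and 2, and from 0.12 to 0.43, -0.029 to 0.56 and -0.050 to 0.43 in Nr4a3 regions 1 to 3.

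The difference in length in peaks at Nr4a1 was 225 bp with peaks at z of at least 30 (exact permutation p = 0.0857), 1888 bp without control replicates 1 and 3 (exact permutation p = 0.133), 250 bp without peaks of 800 bp or more, and 1342 to 2308 bp without 1 library (exact permutation p = 0.0571 without any 1 control). That at Nr4a2 was 825 bp with peaks at z of at least 10, 1200 bp without peaks of 800 bp or more, -0.29 relative to the library's own peaks, -213 bp without control replicates 1 and 3, and -313 to 833 bp without 1 library. The difference in listed peaks at Nr4a2 was 0.25 and 1 at z of at least 10 and 30, 0.75 with windows widened by 10 kb, 1 without control replicates 1 and 3, and -2.5 to 1.83 without 1 library. At Nr4a3 it was -0.056 relative to the library's own peaks and -0.75 to 4 without 1 library. Without 1 library, the difference in highest z was 22.6 to 47.8 at Nr4a1, 10.4 to 41.1 at Nr4a2 (both lowest without conditioned replicate 4) and 25.97 to 58.7 at Nr4a3, where the exact permutation p of 0.0286 without conditioned replicate 2 was the lowest. With control replicates 1 and 3 both left out, the difference in highest z was 18.0 at Nr4a1, 19.8 at Nr4a2 and 27.9 at Nr4a3. In that order, exact permutation p was 0.6, 0.533 and 0.467. The cause was not tested for any of these.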
